A study of Homo sapiens with 6 samples.

Results

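NRF2, encoded by NFE2L2, its inhibitor KEAP1 and 7 of its classical antioxidant target genes (NQO1, HMOX1, GCLC, GCLM, TXNRD1, SRXN1 and OSGIN1) were examined in HCCLM3, a strongly metastasising line of human liver carcinoma cells. The 9 genes were chosen by name, with earlier results of these data known. All 9 were found among the 34234 gene symbols of the deposited table. They passed the filter on low counts, which left 17935 genes for testing. Every library came from HCCLM3 cells that had received a lentivirus, which carried a control hairpin in 3 libraries (shcontrol) and a hairpin against ATXN7L3 in 3 libraries (shATXN7L3). ATXN7L3 is an adaptor of the deubiquitinase module of the SAGA coactivator complex, which removes ubiquitin from histone H2B. A single hairpin label is given, the time of harvest is not given in the sources used here, and the labels do not state whether the replicates were separate cultures, so each p-value reflects no more than variation among the 6 libraries, part or all of which may be technical.

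KEAP1 holds the transcription factor NRF2 in the cytoplasm and hands it to a CUL3 ubiquitin ligase for degradation. Oxidants and electrophiles modify cysteines of KEAP1, NRF2 then accumulates, pairs with a small MAF protein in the nucleus and binds antioxidant response elements (AREs). In the liver this pathway controls quinone reduction, heme breakdown, glutathione synthesis and the thioredoxin system, and it is often active in hepatocellular carcinoma through changes in NFE2L2 or KEAP1 or through accumulation of the adaptor SQSTM1.

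A total of 5 promoter windows are shown, those in which letters of an ARE core or of an AP-1 site were found, because AREs are the elements through which NRF2 acts on these genes. Each runs from 250 bases before to 50 bases after an annotated RefSeq start (GRCh38.p14) and is written 5′ to 3′ on the strand of the gene. Capitals mark matches to the ARE core TGACNNNGC or to the AP-1 site TGACTCA, whose letters TGAGTCA on the other strand were searched as well. Both motifs were searched on both strands. The table held 11 windows for 8 of the 9 genes and none for HMOX1.
TXNRD1 upstream window, chr12:104215529-104215828, plus strand: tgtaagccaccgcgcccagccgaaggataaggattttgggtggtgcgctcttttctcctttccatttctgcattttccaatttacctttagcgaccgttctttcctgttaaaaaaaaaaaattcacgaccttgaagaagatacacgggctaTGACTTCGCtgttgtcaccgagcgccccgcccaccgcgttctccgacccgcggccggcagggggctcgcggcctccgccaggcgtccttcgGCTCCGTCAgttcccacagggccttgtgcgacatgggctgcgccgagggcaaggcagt
TXNRD1 downstream window, chr12:104286782-104287081, plus strand: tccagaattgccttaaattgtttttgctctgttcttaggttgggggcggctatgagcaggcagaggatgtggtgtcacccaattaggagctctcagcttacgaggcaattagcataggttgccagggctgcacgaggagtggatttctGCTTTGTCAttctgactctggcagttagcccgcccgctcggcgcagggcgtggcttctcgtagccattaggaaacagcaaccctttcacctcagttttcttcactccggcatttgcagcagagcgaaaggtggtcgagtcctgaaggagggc
GCLM window, chr1:93909381-93909680, minus strand: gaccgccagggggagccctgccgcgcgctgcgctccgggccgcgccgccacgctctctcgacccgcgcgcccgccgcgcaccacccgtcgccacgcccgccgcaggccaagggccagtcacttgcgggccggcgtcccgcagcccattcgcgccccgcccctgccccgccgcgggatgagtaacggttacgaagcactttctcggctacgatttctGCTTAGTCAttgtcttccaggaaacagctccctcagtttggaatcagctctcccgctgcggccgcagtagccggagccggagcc
KEAP1 window, chr19:10502722-10503021, minus strand: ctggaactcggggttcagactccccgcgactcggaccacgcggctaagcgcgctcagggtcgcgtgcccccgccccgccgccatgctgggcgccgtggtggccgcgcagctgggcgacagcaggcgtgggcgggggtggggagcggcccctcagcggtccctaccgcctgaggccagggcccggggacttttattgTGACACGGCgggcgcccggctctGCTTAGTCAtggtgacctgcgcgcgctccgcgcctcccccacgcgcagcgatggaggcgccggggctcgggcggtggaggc
OSGIN1 window, chr16:83952990-83953289, plus strand: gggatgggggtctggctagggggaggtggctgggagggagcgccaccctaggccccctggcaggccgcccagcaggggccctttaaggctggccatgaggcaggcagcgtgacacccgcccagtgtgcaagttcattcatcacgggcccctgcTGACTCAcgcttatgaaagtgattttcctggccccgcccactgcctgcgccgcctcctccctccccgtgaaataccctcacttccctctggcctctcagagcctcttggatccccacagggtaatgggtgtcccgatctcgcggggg

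An ARE core was present in 4 of the 11 windows, those of TXNRD1, GCLM and KEAP1, and in 13.3% of all 35116 windows of the same length. The GCLM match, GCTTAGTCA, began 34 bases before the start, and the same letters stood 31 bases before the start in the KEAP1 window, beside a second match at 54 bases. The upstream TXNRD1 window held matches at 99 bases and at 8 bases before the start, and the downstream window held 1 at 102 bases. The AP-1 letters were found in the OSGIN1 window, 97 bases before the start, and in 4.95% of all windows. No match of one motif overlapped a match of the other in these windows. The remaining windows of NFE2L2, NQO1, GCLC, SRXN1 and KEAP1 held neither motif. Bases outside these windows were not searched, so a window without a match does not show that its gene lacks an ARE. A match describes letters in the reference and is not a measurement of binding.

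Library totals lay between 22376867 and 23915783 counts, and mitochondrially encoded genes took 21.7% to 22.9% of them. ATXN7L3 itself stood at 36.4, 37.5 and 37.5 counts per 1000000 (CPM, scaled by TMM) in shcontrol and at 20.6, 20.5 and 19.5 CPM in shATXN7L3, with no overlap (log2 fold change -0.88 ± 0.056 SE, edgeR adjusted p = 6.69e-10). Of the hepatocyte and hepatoma markers, KRT8 (1652 CPM in shcontrol), KRT18 (176 CPM), ALB (65.2 CPM) and HNF4A (43.5 CPM) were present, whereas AFP (2.91 CPM), TTR (0.758 CPM) and APOA1 (0.418 CPM) were low, and 6 of the 7 tested markers fell in shATXN7L3. ALB averaged 24.1 CPM in shATXN7L3, a fold of 0.370 (adjusted p = 3.27e-13 in edgeR). HNF4A averaged 33.4 CPM there, a fold of 0.768 (adjusted p = 2.92e-05 in edgeR). KRT8 and KRT18 fell less, with folds of 0.896 and 0.880, and FOXA2, with a fold of 0.978, was not called. KRT8 made up most of the summed level of the markers, which therefore says little about ALB or HNF4A. That sum was 1839 to 2023 CPM in shcontrol and 1658 to 1803 CPM in shATXN7L3. The part of these markers in the results below was not tested. The 6 leukocyte markers summed to 1.20 to 2.09 CPM in shcontrol and 0.747 to 1.26 CPM in shATXN7L3, and LYZ, the 1 of them tested, fell. The endothelial and fibroblast markers VWF, CDH5, COL1A1, PDGFRB, DCN and ACTA2 had at most 9 counts per library, whereas PECAM1, KDR and LUM were detected. PECAM1 fell from 43.7 ± 3.26 to 27.97 ± 0.726 CPM (-0.64 ± 0.060, adjusted p = 1.37e-07 in edgeR) and LUM from 25.6 ± 2.31 to 5.22 ± 0.429 CPM (-2.29 ± 0.090, adjusted p = 4.43e-13 in edgeR), while KDR stood at 15.5 and 15.3 CPM (-0.02, adjusted p = 0.917 in edgeR). The 4 endothelial markers summed to 57.2 to 62.1 CPM in shcontrol and 42.4 to 44.4 CPM in shATXN7L3, and the 5 fibroblast and stellate markers to 23.6 to 27.9 and 5.27 to 6.11 CPM. The part of these changes in the results on the 9 genes was not tested.

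Among the 9 genes, NFE2L2 and 4 targets (GCLC, NQO1, TXNRD1 and OSGIN1) were lower in shATXN7L3, SRXN1 was higher, and KEAP1, HMOX1 and GCLM did not pass the test (edgeR quasi-likelihood test, Benjamini-Hochberg adjusted p under 0.05 over all tested genes). The differences were moderate, with fitted folds between 0.727 for GCLC and 1.22 for SRXN1. The value of SRXN1 may not be its own alone, since most of its exonic bases belong also to another gene on the same strand. Over all tested genes, 12.2% were called higher and 12% lower, 24.2% in either direction. Shares of calls vary with level: of the 3482 genes with a mean of at least 50 CPM, a floor chosen after seeing the data, 14.4% were called higher and 24% lower, and 7 of the 9 genes lay above it, with 4 lower and 1 higher. The median log2 fold change was -0.20 for the 9 genes and 0.01 for all tested genes. The groups did not overlap in 7 of the 9 genes, 6 lower and 1 higher, and in 38.3% of all tested genes, 18.4% lower and 19.8% higher. In a bulk sample, fewer cells with a transcript and less of it per cell cannot be told apart.

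**Figure D1:**
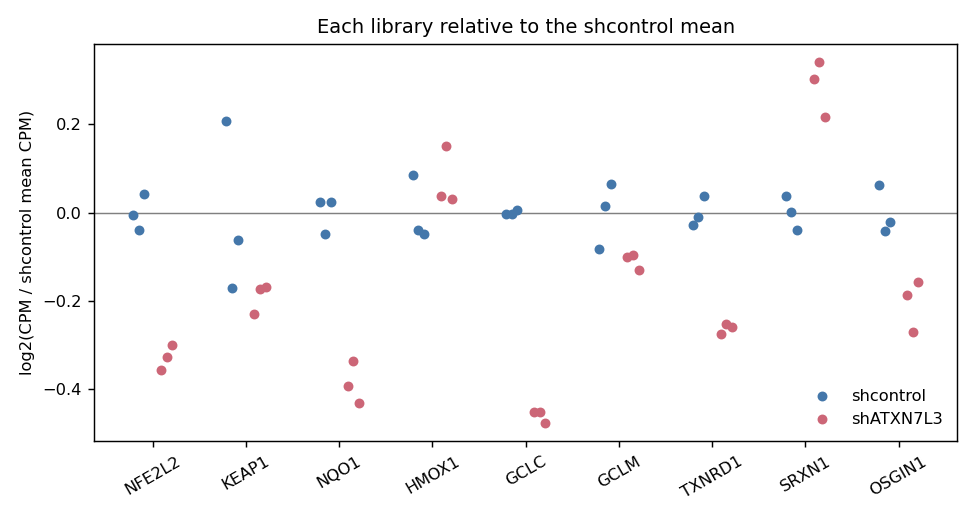
Level of each gene in each library as log2 of its CPM over the shcontrol mean CPM of that gene (blue: 3 shcontrol libraries, red: 3 shATXN7L3 libraries, in replicate order). The red points of NFE2L2, NQO1, GCLC, GCLM, TXNRD1 and OSGIN1 lie below all blue points, those of SRXN1 above, and those of KEAP1 and HMOX1 overlap them.

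NFE2L2, the gene of the transcription factor (chromosome 2, 177227595 to 177392697, minus strand, GRCh38), stood at 92.0, 89.9 and 95.1 CPM in shcontrol and at 72.1, 73.6 and 75.0 CPM in shATXN7L3. Every shATXN7L3 library lay below every shcontrol library. The group means were 92.3 ± 2.64 and 73.6 ± 1.43 CPM (SD, n = 3 each), and the fitted log2 difference was -0.33 ± 0.046 (SE; adjusted p = 2.22e-05 in edgeR), a fold of 0.797. Of the exonic bases of NFE2L2, 17.6% belong also to AC074286.1 on the same strand, a gene with 29 to 44 counts per library, against 1677 to 2165 for NFE2L2. A further 4.08% lie opposite exons of AGPS and AC079305.10, which had 2011 to 2196 and 114 to 149 counts per library.

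KEAP1, the gene of the inhibitor and substrate adaptor of the CUL3 ligase (chromosome 19, 10486120 to 10503741, minus strand), had few reads, 147 to 198 per library. Its level was 8.80, 6.77 and 7.29 CPM in shcontrol and 6.49, 6.76 and 6.78 CPM in shATXN7L3. The groups overlapped narrowly, since shcontrol replicate 2 fell within the range of shATXN7L3 and replicate 1 stood highest. The log2 fold change was -0.19 with a 95% interval from -0.41 to 0.03 (edgeR adjusted p = 0.217), and without shcontrol replicate 1 it was -0.07. A fall to 0.750-fold and a rise to 1.02-fold both lay within the interval.

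Per length, NFE2L2 exceeded KEAP1 by a ratio of 6.57, 8.36 and 8.20 in the shcontrol libraries and 6.99, 6.85 and 6.96 in the shATXN7L3 libraries (ratio of RPKM, reads per 1000 exonic bases and 1000000 counts). The ratios overlapped, with 1 shcontrol library below and the others above all shATXN7L3 libraries. The difference in log2 ratio was -0.15 (exact two-sided permutation test, p = 0.4, and 0.4 adjusted over the 2 ratios tested).

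NQO1 encodes a quinone reductase that uses NADPH or NADH for a 2-electron reduction and is among the most used readouts of NRF2 activity. It lies on chromosome 16 (69706996 to 69726951, minus strand). Its level was 478, 454 and 478 CPM in shcontrol and 358, 373 and 349 CPM in shATXN7L3. The groups were well apart, the lowest shcontrol library exceeding the highest shATXN7L3 library. The means of 470 ± 13.8 and 360 ± 12.0 CPM gave a log2 fold change (log2FC) of -0.39 ± 0.043 (edgeR adjusted p = 1.77e-06). An antisense gene, CTD-2033A16.1, lies opposite 17.7% of the exonic bases of NQO1. It had 1527, 1497 and 1581 counts in shcontrol and 1183, 1296 and 1163 in shATXN7L3, so its counts fell together with those of NQO1. As the strand setting of the counting is not given in the sources used here, reads of this stretch cannot be assigned to one of the pair.

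HMOX1 encodes heme oxygenase 1, which opens the heme ring to biliverdin, carbon monoxide and iron (chromosome 22, 35380361 to 35394214, plus strand). Its level was 179, 164 and 164 CPM in shcontrol and 174, 188 and 173 CPM in shATXN7L3. The shcontrol replicate 1 value lay inside the range of the shATXN7L3 libraries, and the other shcontrol values lay below it. The log2 fold change was 0.07 with a 95% interval from -0.03 to 0.18 (edgeR adjusted p = 0.301), a range of folds from 0.981 to 1.13. It lay between 0.04 and 0.12 when single libraries were left out.

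GCLC and GCLM encode the catalytic and the modifier subunit of glutamate-cysteine ligase, the rate-limiting enzyme of glutathione synthesis. GCLC (chromosome 6, 53497341 to 53616970, minus strand) stood at 182.9, 182.9 and 184 CPM in shcontrol and at 134, 134 and 132 CPM in shATXN7L3. It had the narrowest spread within shcontrol of the 9 genes, with a coefficient of variation of 0.388%. Its log2 fold change of -0.46 ± 0.042 (edgeR adjusted p = 9.01e-08) was the lowest of the 9, a fold of 0.727 with a 95% interval from 0.684 to 0.772. The gene RP1-27K12.2 shares 6.25% of the exonic bases of GCLC on the same strand and had 455 to 625 counts per library, against 3115 to 4190 for GCLC.

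GCLM (chromosome 1, 93885205 to 93909456, minus strand) stood at 292, 312 and 324 CPM in shcontrol and at 289, 289 and 283 CPM in shATXN7L3. The groups did not overlap, but shcontrol replicate 1 lay within a few CPM of the highest shATXN7L3 libraries. The log2 fold change was -0.11 ± 0.045, with a 95% interval from -0.20 to -0.01 before adjustment, and the edgeR adjusted p was 0.0891. Leaving out shcontrol replicate 1 gave -0.15 and an edgeR adjusted p of 0.00928.

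Relative to GCLC, GCLM was higher in every shATXN7L3 library. Per length, the GCLM to GCLC ratio was 2.49, 2.67 and 2.74 in shcontrol and 3.36, 3.37 and 3.35 in shATXN7L3. All shATXN7L3 ratios exceeded all shcontrol ratios, and they lay within a much narrower range. The means were 2.63 ± 0.129 and 3.36 ± 0.00914 (SD, n = 3 each), a difference of 0.35 in log2 ratio. The exact two-sided permutation test gave p = 0.1, the smallest value that 3 against 3 libraries allow, and 0.2 when adjusted over the 2 ratios tested. The ratio depends on the exonic lengths in the deposited table, 8463 bases for GCLC and 5420 for GCLM, which join the exons of all annotated transcripts; the difference between groups does not.

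**Figure D2:**
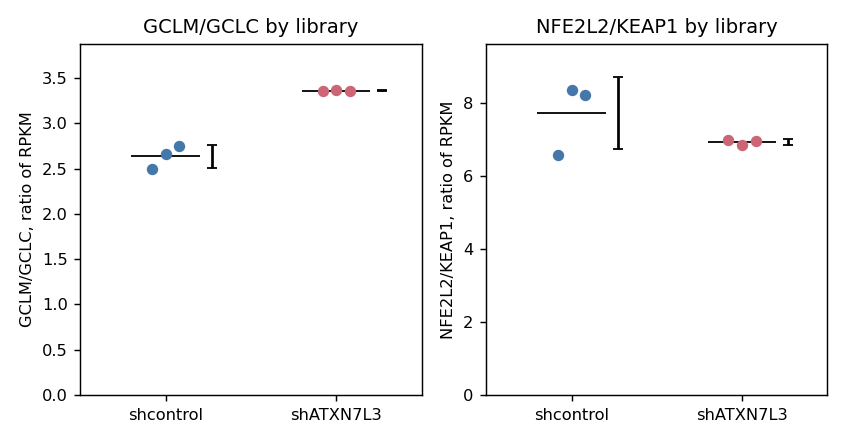
Ratio of RPKM of GCLM to GCLC (left) and of NFE2L2 to KEAP1 (right) in each library (points), with the group mean (line) and SD (bar beside it). The GCLM to GCLC ratio lies between 2.49 and 2.74 in shcontrol and between 3.35 and 3.37 in shATXN7L3, while the NFE2L2 to KEAP1 ratios overlap.

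TXNRD1 encodes cytosolic thioredoxin reductase, a selenoprotein that returns oxidised thioredoxin to its reduced form with electrons from NADPH (chromosome 12, 104215779 to 104350305, plus strand). It was the most abundant of the 9 genes and ranked 83 of 17935 by RPKM in shcontrol. Its level was 2645, 2681 and 2769 CPM in shcontrol and 2229, 2265 and 2254 CPM in shATXN7L3. The gap between the groups was wider than the spread within either. The means of 2699 ± 63.8 and 2249 ± 18.7 CPM gave a log2 difference of -0.26 ± 0.041 (adjusted p = 9.12e-05 in edgeR) and a fold of 0.834. TXNRD1 alone took 0.258% to 0.278% of all counts in shcontrol and 0.228% in each shATXN7L3 library. No other gene in the table shares its exonic bases. Both TXNRD1 windows hold ARE cores, as do windows of GCLM and KEAP1, which did not pass the test. No link between these letters and the levels was tested.

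SRXN1 encodes sulfiredoxin, which repairs overoxidised peroxiredoxins (chromosome 20, 646615 to 653370, minus strand). It stood at 182, 178 and 173 CPM in shcontrol and at 219, 225 and 207 CPM in shATXN7L3. Every shATXN7L3 library exceeded every shcontrol library. The means were 178 ± 4.75 and 217 ± 9.53 CPM, a log2 difference of 0.29 ± 0.045 (adjusted p = 8.79e-05 in edgeR) and a fold of 1.22. It was the only one of the 9 genes called higher. The count of SRXN1 may not be its own alone: 85.0% of its exonic bases belong also to a longer gene on the same strand (AL121758.1 in GENCODE 29), which had 3779 to 5280 counts per library against 3867 to 5429 for SRXN1. By library, AL121758.1 had 3988, 3779 and 3795 counts in shcontrol and 4941, 5280 and 4788 in shATXN7L3. SRXN1 had 4104, 3867 and 3935 counts in shcontrol and 5101, 5429 and 4937 in shATXN7L3. The counts of both genes were close in every library and rose together. The level and the rise therefore cannot be assigned to SRXN1 alone. Whether the same reads were counted for both genes was not tested, and the transcripts cannot be told apart in the common stretch.

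OSGIN1 encodes an oxidative stress-induced growth inhibitor (chromosome 16, 83948282 to 83966332, plus strand). It stood at 31.3, 29.1 and 29.6 CPM in shcontrol and at 26.4, 24.9 and 26.9 CPM in shATXN7L3. The groups did not overlap, with shATXN7L3 below. Of its exonic bases, 13.9% belong also to a gene on the same strand that had 14 to 27 counts per library. The log2 fold change was -0.20 ± 0.058 (edgeR adjusted p = 0.0140). The call ended when shATXN7L3 replicate 2 was left out (edgeR adjusted p = 0.0868) and with scaling by library size alone (edgeR adjusted p = 0.0559).

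**Figure D3:**
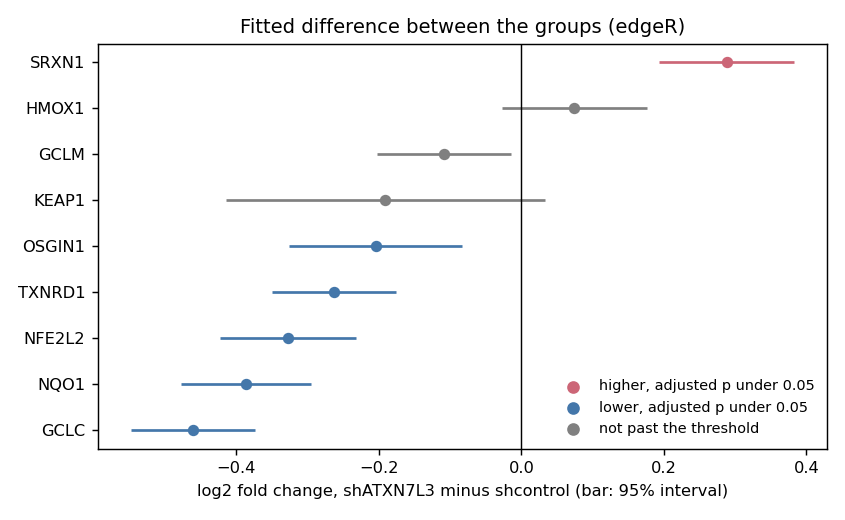
Fitted log2 fold change of each gene, shATXN7L3 minus shcontrol (point), with its 95% interval (bar), from the edgeR fit over all tested genes. The intervals of GCLC, NQO1, NFE2L2, TXNRD1 and OSGIN1 (blue) lie below 0 and that of SRXN1 (red) above, and KEAP1, GCLM and HMOX1 (grey) did not pass the threshold.

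Compared per length, the 9 transcripts spanned a wide range in shcontrol. TXNRD1 was highest with 402 ± 9.51 RPKM, followed by NQO1 (145 ± 4.24 RPKM), HMOX1 (70.3 ± 3.69 RPKM), SRXN1 (65.9 ± 1.76 RPKM) and GCLM (57.1 ± 2.97 RPKM). GCLC (21.7 ± 0.0841 RPKM), NFE2L2 (15.4 ± 0.441 RPKM) and OSGIN1 (8.67 ± 0.336 RPKM) were lower, and KEAP1 was lowest with 2.03 ± 0.281 RPKM. HMOX1 and SRXN1 were close neighbours, from 68.0 to 74.6 RPKM against 64.1 to 67.6 RPKM in shcontrol, and in shATXN7L3 their ranges overlapped, with HMOX1 at 71.8 to 78.1 RPKM and SRXN1 at 76.6 to 83.5 RPKM. No neighbours in the order overlapped in shcontrol. The order depends on the exonic lengths in the deposited table. The place of SRXN1 is uncertain, since 85.0% of its exonic bases belong also to AL121758.1. Among all tested genes, the 5 highest of the 9 lay above the 96th percentile of shcontrol RPKM and KEAP1 at the 38.4th. The spread within shcontrol was below the median of all tested genes (coefficient of variation 7.32%) in 8 of the 9 genes, and KEAP1, with the fewest reads, was the exception at 13.8%. That median covers genes of all levels: 7 of the 9 genes had a mean of at least 50 CPM, against 3482 of the 17935 tested. The spread was not compared with that of genes of similar level.

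**Figure D4:**
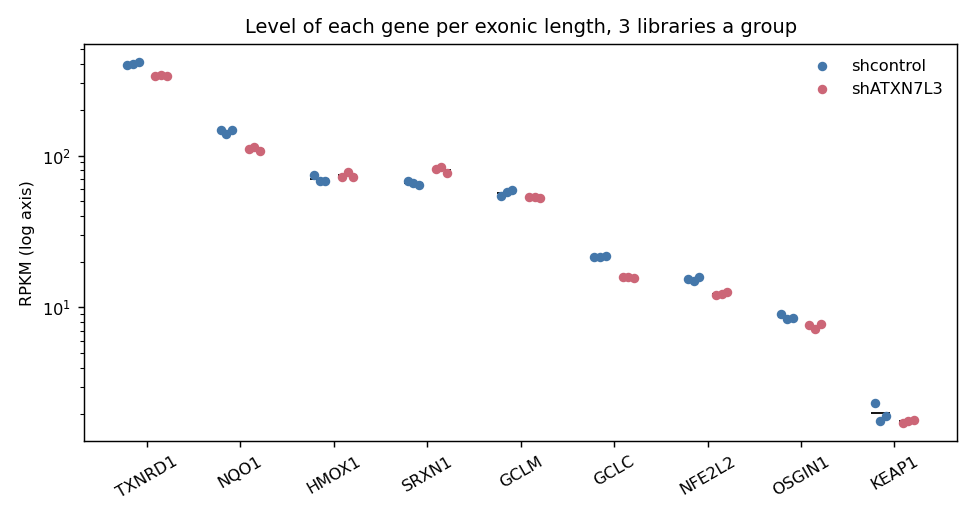
RPKM of each gene in each library on a log axis, ordered by the shcontrol mean (blue: shcontrol, red: shATXN7L3, line: group mean). TXNRD1 stands near 402 RPKM and KEAP1 near 2.03 RPKM in shcontrol, and the differences between groups are small beside the range between genes.

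The wider pathway was read from 7 lists of other genes, which held 101 genes, 97 of them tested. Of these, 15 were higher, 22 lower and 60 not past the threshold (edgeR), against 12.2% higher and 12% lower over all tested genes. Among genes with a mean of at least 50 CPM, a level that many of the 97 exceeded, 14.4% were higher and 24% lower. The detoxification list held 10 of the 22 lower genes. The median log2 fold change of the 97 was -0.00. With DESeq2, 9 of the 97 were higher and 21 lower, and without shATXN7L3 replicate 2, 9 were higher and 22 lower.

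Of 13 tested partners, degradation factors and relatives of NRF2, 2 rose and 2 fell, with a median log2 fold change of -0.03. NFE2L3, a relative of NRF2 in the same bZIP family, rose from 12.5 ± 0.990 to 19.1 ± 1.52 CPM (log2 difference 0.62 ± 0.079, adjusted p = 8.30e-06 by edgeR). NFE2L1, the relative that drives proteasome genes, fell by 0.18 on the log2 scale. SQSTM1, the autophagy adaptor p62 that sequesters KEAP1 and is itself a target of NRF2, stood at 2059, 1989 and 1920 CPM in shcontrol and at 1682, 1728 and 1662 CPM in shATXN7L3, with a log2 fold change of -0.23 ± 0.043 (adjusted p = 4.08e-04 in edgeR). DPP3, a peptidase that binds KEAP1, rose by 0.24, a call that ended with DESeq2 (adjusted p = 0.0595) and without shATXN7L3 replicate 2 (0.0505). BACH1, the repressor that competes with NRF2 at AREs and is best known for HMOX1, was singled out after its values were seen and stood at 25.8 and 25.4 CPM (-0.03 ± 0.062, edgeR adjusted p = 0.813). The ligase scaffold CUL3 and the small MAF genes MAFF, MAFG and MAFK, singled out in the same way, had log2 fold changes of -0.03, 0.02, -0.05 and 0.15 and did not pass the test.

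Of 19 tested genes of glutathione synthesis, recycling and peroxidases, 4 rose and 2 fell, with a median log2 fold change of 0.06, and 2 rose with DESeq2 or without shATXN7L3 replicate 2. The glutaredoxin GLRX fell from 24.1 ± 0.976 to 18.1 ± 0.751 CPM (-0.41 ± 0.063, edgeR adjusted p = 6.63e-05), and SLC3A2, the heavy chain of the cystine transporter, fell from 257 ± 16.1 to 217 ± 0.772 CPM (-0.24 ± 0.047). The secreted glutathione peroxidase GPX3 rose by 0.59 from 9.65 CPM and GPX8, a peroxidase of the endoplasmic reticulum, by 0.43 from 21.0 CPM. SLC7A11, the light chain of the same transporter and an NRF2 target, was singled out after its values were seen and stood at 501 and 525 CPM (0.07 ± 0.052, edgeR adjusted p = 0.386).

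Of 18 tested thioredoxins and peroxiredoxins, 3 rose and 3 fell, with a median log2 fold change of 0.03. TXN, thioredoxin itself and the substrate of TXNRD1, rose from 392 ± 21.2 to 448 ± 6.05 CPM (log2 difference 0.19 ± 0.045, adjusted p = 0.00367 by edgeR), the opposite direction to TXNRD1. The peroxiredoxin PRDX5 rose from 117 ± 4.07 to 147 ± 4.38 CPM (0.33 ± 0.045). MSRB3, a methionine sulfoxide reductase, fell by 0.67 on the log2 scale, and TXNIP, an inhibitor of thioredoxin, went from 1.03 to 0.350 CPM (-1.54 ± 0.32, edgeR adjusted p = 0.00149).

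Of 8 tested genes of NADPH supply, 1 rose and 2 fell, with a median log2 fold change of 0.05. PGD, 6-phosphogluconate dehydrogenase of the pentose phosphate pathway, stood at 1052, 1054 and 1044 CPM in shcontrol and at 804, 839 and 819 CPM in shATXN7L3 (-0.36 ± 0.041, edgeR adjusted p = 2.22e-06). The malic enzyme ME1 fell by 0.26 and the mitochondrial transhydrogenase NNT rose by 0.23 on the log2 scale. With scaling by library size alone, 3 of these genes were called higher, and without shcontrol replicate 3, 2 were.

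Of 8 tested genes of heme and iron handling, 1 rose and 2 fell, with a median log2 fold change of -0.05. FECH, ferrochelatase, the last enzyme of heme synthesis, fell by 0.28, and BLVRB, a biliverdin reductase, rose by 0.31 on the log2 scale. For the ferritin light chain FTL the log2 fold change was -0.16, with an adjusted p of 0.0234 in edgeR. That call ended with scaling by library size alone (0.0674) and on leaving out replicate 2 of shcontrol (0.0880), replicate 1 of shATXN7L3 (0.0528) or its replicate 3 (0.200).

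Of 23 tested detoxification and export genes, 10 fell and 1 rose, with a median log2 fold change of -0.08. Over all tested genes, 12% were called lower and 12.2% higher in edgeR. Among genes with a mean of at least 50 CPM, where most of this list lay, 24% were lower and 14.4% higher. EPHX1, microsomal epoxide hydrolase, stood at 412, 370 and 398 CPM in shcontrol and at 254, 252 and 252 CPM in shATXN7L3 (-0.64 ± 0.045, edgeR adjusted p = 2.75e-09). The aldo-keto reductase AKR1C1 fell from 1135 ± 43.0 to 878 ± 26.6 CPM (-0.37 ± 0.044), the carbonyl reductase CBR1 from 57.1 ± 1.94 to 43.8 ± 1.92 CPM (-0.38 ± 0.052) and the glutathione transferase GSTM3 from 43.1 ± 1.52 to 33.7 ± 1.29 CPM (-0.35 ± 0.054). AKR1C1 has near-identical relatives and TXN and FTL have processed pseudogenes, so their values are uncertain to that extent. Of the exonic bases, 22.04% in SQSTM1, 18.9% in CBR1 and 12.05% in SOD2 lie opposite exons of other genes. The count of higher genes, PIR alone, became 0 with DESeq2, on leaving out replicate 2 of shcontrol, and on leaving out replicate 2 or 3 of shATXN7L3, and it became 2 with scaling by library size alone. Hepatocytes express many genes of this list, and 6 of the 7 tested hepatocyte and hepatoma markers fell too (median -0.38); their part in these changes was not tested.

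Of 8 tested superoxide and hydrogen peroxide enzymes, 3 rose and 1 fell, with a median log2 fold change of -0.04. SOD2, the mitochondrial superoxide dismutase, rose from 58.9 ± 1.52 to 71.7 ± 2.40 CPM (log2 difference 0.28 ± 0.048, adjusted p = 1.91e-04 by edgeR). The call of CYBA, a subunit of NADPH oxidases (0.24), ended without shATXN7L3 replicate 3 (edgeR adjusted p = 0.0710). SOD1, the cytosolic dismutase (-0.16, edgeR adjusted p = 0.0274), lost its call with scaling by library size alone (0.0738) and on leaving out shcontrol replicate 1 (0.0622), its replicate 2 (0.108), shATXN7L3 replicate 1 (0.156) or its replicate 3 (0.133). Catalase, CAT (0.18, edgeR adjusted p = 0.0374), lost its call with DESeq2 (0.141), on dropping the filter (0.0531) and on leaving out shcontrol replicate 2 (0.133), its replicate 3 (0.0529), shATXN7L3 replicate 1 (0.107) or its replicate 2 (0.179).

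**Figure D5:**
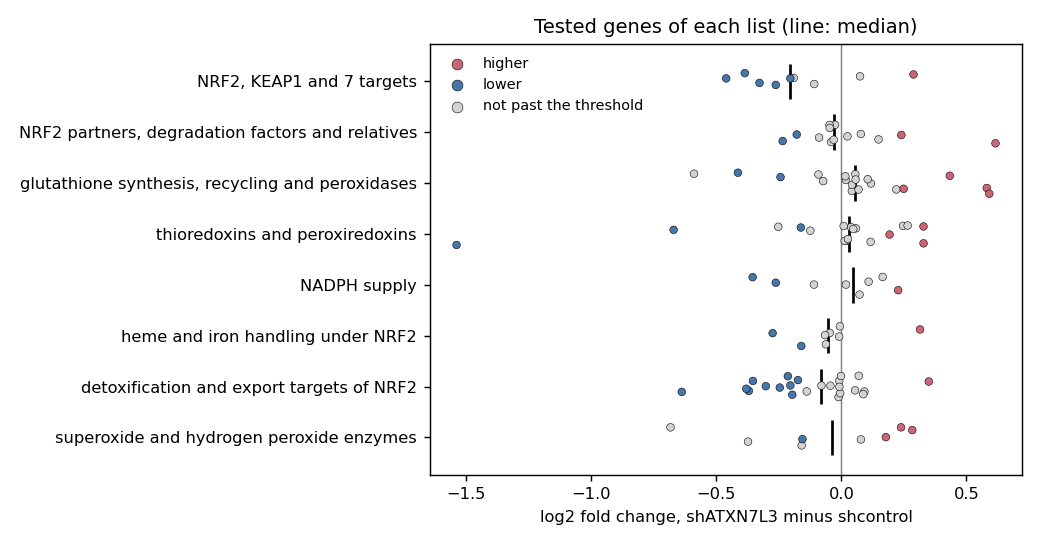
Log2 fold change, shATXN7L3 minus shcontrol, of every tested gene of each list (points; red: higher, blue: lower, grey: not past the threshold) with the list's median (line). The detoxification list holds 10 genes called lower and 1 called higher, and the upper row 5 and 1. Every row has points on both sides of 0.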

How the data were processed

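RNA from 6 HCCLM3 libraries was extracted with Trizol and selected for poly-A tails, per the labels' protocols. The authors deposited 1 table of unnormalized read counts for each gene symbol, with its exonic length. Per the submitters' processing notes, the build was GRCh38 and the tools were STAR 2.5.3a, Trimmomatic 0.36, edgeR 3.12.1 and Subread 1.5.1 with featureCounts. The annotation release and strand setting are not given there.

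Genes were filtered with filterByExpr (minimum count 10, total 15), scaled by TMM and tested with edgeR 4.0.16 in R 4.3.3 (glmQLFit, glmQLFTest, group only, Benjamini-Hochberg over 17935 genes, threshold 0.05). SE is the log2 fold change over the square root of F, and 95% intervals use the t quantile. RPKM is CPM per 1000 exonic bases. Chi-square values per gene, with 1 as sampling noise, were 3.6 to 6.52 between shcontrol libraries and 1.59 to 2.18 between shATXN7L3 libraries. Both ranges exceed what counting noise alone gives, so all 6 were kept as separate libraries. Scripts were tested on simulated data.

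The 9 genes and the lists were chosen with earlier results of these data known. Named are the 9 genes, ATXN7L3 and, per list, up to 4 called genes with the smallest p, or the 2 of highest CPM where none passed. Alternatives were other scalings and filters, DESeq2 1.42.0, limma 3.58.1 voom, a replicate block and leaving out each library. NOX4 and GPC3 were not analysed here.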

Additional observations from a re-analysis of the deposited data

How the results depend on the processing

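NFE2L2, NQO1, GCLC, TXNRD1 and SRXN1 kept their direction and their call under all 15 alternatives, and KEAP1 and HMOX1 kept their direction and passed the threshold under none of them. All alternatives used the same deposited counts, so none separates SRXN1 from AL121758.1, which shares most of its exonic bases. OSGIN1 weakened to -0.16 with scaling by library size alone (edgeR adjusted p = 0.0559), and when single libraries were left out it ranged from -0.23 to -0.17. GCLM ranged from -0.15 to -0.079 in that series. The number of the 9 genes called lower ranged from 4 to 6, and 1 was called higher throughout. Scaling by library size alone moved the median of all tested genes from 0.01 to 0.05 and the split of calls from 2182 higher and 2150 lower to 2955 and 1604. DESeq2 called 1405 genes higher and 1603 lower, and 9 of the other pathway genes higher; when single libraries were left out, 9 to 15 of those were called higher. The cause of these shifts was not tested. Same-numbered libraries showed no shared deviation (correlations -0.0575, 0.0111 and 0.0700, against -0.133 to 0.124 for differently numbered ones). So few correlations cannot exclude a pairing by number. With the replicate block, 2188 genes were called higher and 2140 lower, OSGIN1 stood at -0.20, and the calls of the 9 genes were as without it; the log2 ratios of GCLM to GCLC (0.35) and NFE2L2 to KEAP1 (-0.15) gave exact permutation p = 0.25 and 0.5, where 3 pairs allow no less than 0.25. With 147 to 198 counts, KEAP1 had the least depth of the 9 genes.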

Other observations

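Within the detoxification list, the other genes called lower besides those named by the rule were UGT1A6 (-0.30 ± 0.046), AKR1C2 (-0.25 ± 0.041), ABCC1 (-0.20 ± 0.042), AKR1C3 (-0.20 ± 0.043), AKR1B10 (-0.17 ± 0.044) and NR0B1 (-0.21 ± 0.072). AKR1B10, an aldo-keto reductase often raised in hepatocellular carcinoma, had a mean of 2872 CPM in shcontrol against 2546 CPM with the ATXN7L3 hairpin. UGDH, MGST1, ABCC2 and ABCC3, which supply glucuronate, conjugate glutathione or export conjugates, had log2 fold changes between -0.01 and -0.00 and did not pass the test. UGT1A6 shares exons with other UGT1A genes, and the AKR1C genes have near-identical relatives, so these values are uncertain. These genes were singled out after their values were seen. MTHFD2, a mitochondrial folate enzyme in the NADPH list, had 0 to 2 counts per library and was not tested.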
